A study of Mus musculus with 18 samples.

Results

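The 4 mature miRNAs described here, mmu-miR-574-5p, mmu-miR-574-3p, mmu-miR-140-5p and mmu-miR-140-3p, are the arms of a pair of hairpins that lie inside introns of protein-coding genes. They were taken by name from the 1978 mature miRNA rows of a small-RNA count table with 203513 features, and 4 of 4 names were found. They were chosen by values measured in these same libraries, their levels in KIN against WT in the glial fractions, which an earlier analysis had drawn attention to. That contrast, and the levels between fractions, which use the same glial libraries, are therefore given as a description with no p-value. Tests are kept for KIN against WT in neurons and for the ratio of the arms of one hairpin. Between fractions that ratio also uses the glial counts that chose the members, so its p-values only describe these libraries.

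The libraries came from brains of 10-month-old mice on a C57BL/6 background. Homozygous Atxn2-CAG100-KIN mice (KIN), which carry an expanded CAG repeat in the endogenous Atxn2 gene, were compared with wild-type littermates (WT) from heterozygous matings. Each brain was dissociated and passed over magnetic columns in turn, so that CD11b-bound cells formed the microglial fraction, ACSA-2-bound cells the astroglial fraction, and cells left after depletion of non-neuronal and CD31-positive cells the neuronal fraction. There were 3 libraries for each genotype and fraction, 18 in all, and all groups share the age, the strain and the sorting. The KIN allele is constitutive, so each fraction came from an animal in which the other cell types carried it too. The labels do not say which libraries of different fractions came from the same brain, so p-values measure only the spread between these libraries.

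A miRNA hairpin is cut out of a longer transcript by Drosha and trimmed by Dicer to a duplex of the 5p and the 3p arm, one strand of which is usually kept in an Argonaute protein while the other is lost. The bases next to the 5′ end of the kept strand, the seed, pair with target mRNAs and repress them. When the hairpin lies in an intron on the strand of its host gene, it can be made from the host's own primary transcript. miR-140 is best known from cartilage, where it is abundant and shares its locus with Wwp2, which encodes a ubiquitin ligase. miR-574 lies in Fam114a1, whose protein is little characterised.

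The sequences are shown because both arms of one hairpin are read separately below, and because the seed decides what each arm can bind. Mature sequences are those of the deposited table, written with T for U, 5′ to 3′, with the seed (bases 2 to 8) in capitals.
miR-574-5p: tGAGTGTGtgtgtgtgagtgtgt
miR-574-3p: cACGCTCAtgcacacacccaca
miR-140-5p: cAGTGGTTttaccctatggtag
miR-140-3p: tACCACAGggtagaaccacgg
The 4 seeds differ from each other, so no arm can stand in for another by its seed. The seed of miR-140-5p occurred in 1 other mature miRNA, mmu-miR-876-3p, and that of miR-140-3p in mmu-miR-497b, whereas both miR-574 seeds occurred in no other row. The longest stretch shared with another mature miRNA was 13 bases for miR-574-5p (with mmu-miR-466i-5p), 11 for miR-574-3p (with mmu-miR-466g), 9 for miR-140-3p and 8 for miR-140-5p.

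The hairpins are shown from GRCm39 (mm39, the build the authors used), with the mature arms in capitals, to place each arm on its precursor.
Mir574: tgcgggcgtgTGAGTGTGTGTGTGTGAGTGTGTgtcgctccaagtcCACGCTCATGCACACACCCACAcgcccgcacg
Mir140: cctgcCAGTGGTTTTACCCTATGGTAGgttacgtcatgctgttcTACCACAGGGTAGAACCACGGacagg
Mir574 (78 bases) lies at chr5:65127661-65127738 on the plus strand, inside intron 1 of 13 of Fam114a1-201, which runs from 65127488 to 65137050. It begins 266 bases after the start of the host gene (chr5:65127395-65200305, plus strand) and no exon of the 12 host transcripts that span it overlaps it. miR-574-5p occupies 65127671 to 65127693 and miR-574-3p 65127707 to 65127728. Mir140 (70 bases) lies at chr8:108277876-108277945 on the plus strand, inside intron 16 of 23 of Wwp2-201, in the host gene at chr8:108162988-108286023. Of the 26 Wwp2 transcripts that span it, 1 overlaps it with an exon, the retained-intron transcript Wwp2-206. miR-140-5p occupies 108277881 to 108277902 and miR-140-3p 108277920 to 108277940. Of miR-574-5p, 91.3% of the bases are G or T, and its full sequence was found 858 times in GRCm39, 857 of them elsewhere than at Mir574. Its reads can therefore not be placed at this locus by sequence alone, while the other 3 sequences were found once each.

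Levels are given as CPM, the counts per 1000000 counts of a library. The totals ran from 1211118 to 4316748, and mature miRNA made up 5.05% to 10.3% of them in the astroglial fraction, 5.09% to 8.46% in the microglial fraction and 0.964% to 2.13% in the neuronal fraction. The members are all 21 to 23 bases long, so the arms are set side by side without a length correction, although reads may include PCR copies. In bulk RNA, fewer cells of a type and less RNA per cell cannot be told apart. Marker miRNAs were used to check the fractions. The 3 myeloid markers (miR-142a-3p, miR-142a-5p, miR-223-3p) summed to 2835 to 5914 CPM in microglia, 10.2 to 48.5 in astrocytes and 42.9 to 377 in neurons. As CPM of the mature miRNA counts only, they reached 52839 to 69956 in microglia, 151 to 531 in astrocytes and 4454 to 23562 in neurons. The 4 neuron markers (miR-124-3p, miR-128-3p, miR-138-5p, miR-132-3p) went against the label of the neuronal fraction, with 52.8 to 241 CPM there and 1051 to 3224 in astrocytes, and as CPM of the mature miRNA counts only they reached 5482 to 12493 and 12465 to 38823. The neuronal fraction is named here by its label only. The astroglial fraction also held the 3 oligodendrocyte markers at 1770 to 5112 CPM, against 28.6 to 43.3 in microglia and 0.655 to 111 in neurons, and the 2 neural lineage miR-9 arms at 5835 to 9496 CPM, against 59.1 to 245 and 964 to 4079. No miRNA list specific to astrocytes was used.

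**Figure D1:**
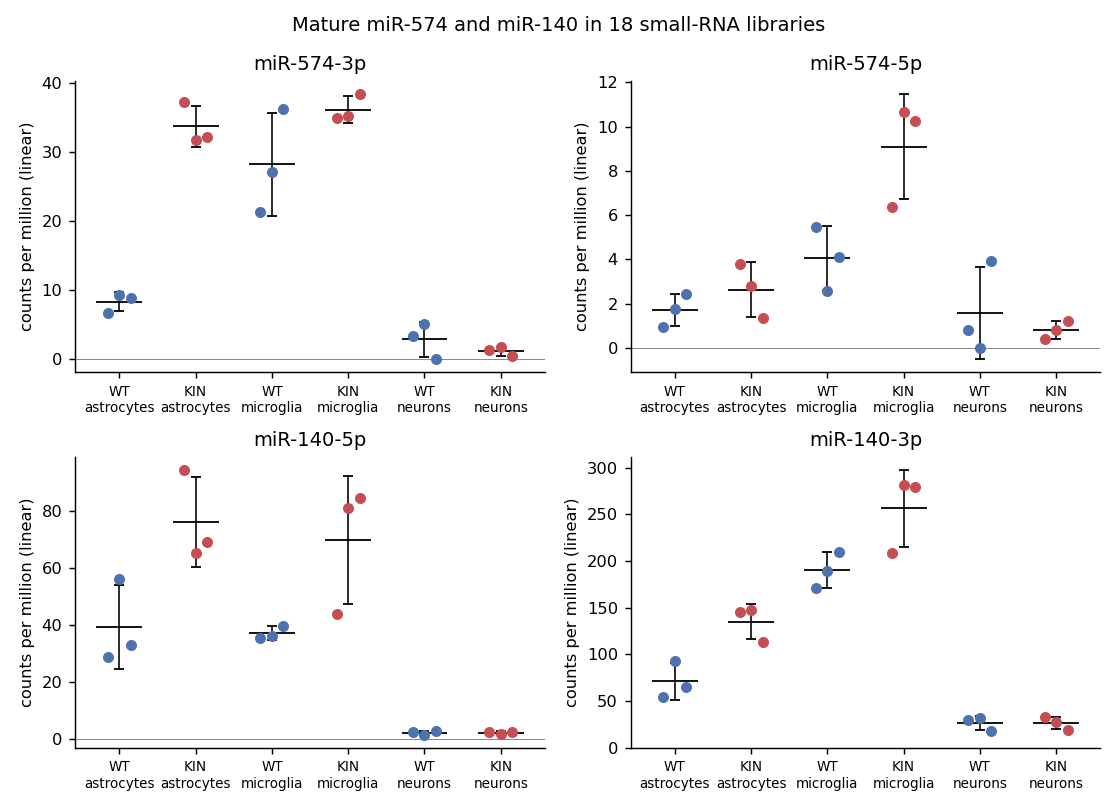
CPM (linear axis) of each member in the 18 libraries, 3 points per group, WT in blue and KIN in red, with the group mean (bar) and SD (whisker). miR-574-3p reads 6.68 to 9.29 CPM in WT astrocytes and 31.8 CPM or more in KIN astrocytes, and all 4 members have their lowest group means in the neuronal fraction.

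miR-574-3p, the arm of Mir574 with more reads in the glial fractions, had 6.68, 9.29 and 8.80 CPM in WT astrocytes and 37.2, 31.8 and 32.2 CPM in KIN astrocytes. The genotypes did not overlap there. Here and below, a lack of overlap only describes these libraries. The share of all features without overlap is not given. In microglia it had 21.3, 27.1 and 36.3 CPM in WT and 34.9, 35.2 and 38.4 CPM in KIN. The highest WT library lay among the KIN libraries. The plot of CPM by group shows that KIN astrocytes, at 33.7 ± 3.02 CPM (SD, n = 3), stood at the level of the microglial groups, 28.2 ± 7.54 in WT and 36.2 ± 1.93 in KIN, whereas WT astrocytes stood at 8.26 ± 1.39. In neurons the WT counts were 4, 10 and 0 and the KIN counts 3, 4 and 1, or 2.80 ± 2.59 and 1.11 ± 0.634 CPM. The WT library with 0 counts allows up to 1.96 CPM (3 counts). In the order of the group means, KIN microglia, KIN astrocytes and WT microglia overlapped with their neighbours, WT astrocytes were apart from the groups on either side, and the neuronal groups overlapped with each other.

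miR-574-5p, the GU-rich arm, was sparse. It had 3, 7 and 8 counts in WT astrocytes and 13, 10 and 5 in KIN astrocytes, or 1.71 ± 0.738 and 2.64 ± 1.23 CPM, and the genotypes overlapped. In microglia it had 5.47, 2.59 and 4.09 CPM in WT and 6.35, 10.7 and 10.2 CPM in KIN, with every KIN library above every WT library. In neurons 1, 0 and 6 counts were found in WT and 1, 2 and 3 in KIN, and the WT library with 0 counts allows up to 1.53 CPM. Only KIN microglia were apart from the next group in the order of means, and the other 5 groups overlapped with their neighbours. This arm therefore had its highest level in KIN microglia, whereas miR-574-3p was about as high in KIN astrocytes.

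miR-140-5p, an arm studied in cartilage, had 28.9, 56.3 and 33.1 CPM in WT astrocytes, whereas KIN astrocytes had 94.5, 65.2 and 69.1 CPM. In microglia it had 35.4, 36.3 and 39.8 CPM in WT and 43.8, 81.3 and 84.5 CPM in KIN. The genotypes did not overlap in either glial fraction, although WT astrocyte library 2 and KIN microglia library 1 lay close to the other genotype. In neurons it had 3, 3 and 4 counts in WT and 6, 4 and 6 in KIN, or 2.21 ± 0.590 and 2.23 ± 0.504 CPM. In the order of the group means KIN astrocytes (76.3 ± 15.9), KIN microglia (69.9 ± 22.6), WT astrocytes (39.4 ± 14.7) and WT microglia (37.2 ± 2.33) each overlapped with the next, and only the neuronal groups were apart.

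miR-140-3p was the most abundant member in all 6 groups. It had 54.7, 92.9 and 65.3 CPM in WT astrocytes and 145, 147 and 113 CPM in KIN astrocytes, without overlap. In microglia it had 171, 190 and 210 CPM in WT and 209, 282 and 279 CPM in KIN, where the lowest KIN library lay just below the highest WT library. In neurons it had 29.7, 31.7 and 18.3 CPM in WT and 32.9, 27.2 and 19.4 CPM in KIN, so the genotypes overlapped fully. Both microglial groups stood above both astroglial groups, with 256 ± 41.4 (KIN) and 190 ± 19.3 (WT) against 135 ± 19.2 (KIN) and 71.0 ± 19.8 (WT) CPM. By mean CPM, miR-140-3p ranked between 42 and 81 among the mature miRNAs with a count, and miR-574-3p between 120 and 239.

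KIN was compared with WT inside each fraction by the edgeR quasi-likelihood test, fitted on all features that reached 5 counts in 2 or more of the 6 libraries. A feature was called when its adjusted p was at most 0.05 and its log2 fold change (log2FC) at least 1 in size. In astrocytes the log2FC of miR-574-3p was 2.14 ± 0.26 (SE), a fold change of 4.42. It was 1.06 ± 0.28 for miR-140-5p, 1.05 ± 0.23 for miR-140-3p and 0.72 ± 0.53 for miR-574-5p. Of the 4 members 3 were called, beside 8.18% of the 5694 features tested, and nothing is read from this count because the contrast chose the members. Their calls depended on single libraries: without WT astrocyte library 1 or 3, or without any of the 3 KIN libraries, 1 member was called instead of 3. With that 1 library left out, miR-574-3p was still called in each case, with a log2FC of 1.96 to 2.25 over the 6 fits.

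In microglia the log2FC was 1.39 ± 0.35 for miR-574-5p, 1.11 ± 0.26 for miR-140-5p, 0.64 ± 0.20 for miR-140-3p and 0.58 ± 0.27 for miR-574-3p. Here 1 of 4 members was called, miR-140-5p, beside 4.35% of the 4940 features tested, which again only describes the choice. This was 0 members without WT library 1 or 3 or without KIN library 2 or 3, and 2 members without WT library 2 or KIN library 1. miR-140-5p thus differed by about the same factor in both glial fractions, 2.08 in astrocytes and 2.16 in microglia, while the arms of Mir574 had their larger differences in different fractions. Whether the difference between KIN and WT was unequal in the glial fractions was not tested.

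Most mature miRNAs were higher in KIN glia, 346 of 418 tested in astrocytes with a median log2FC of 0.58, and 267 of 382 in microglia with 0.46. The medians over all features were −0.19 and −0.11. The share of mature miRNA in the libraries moved with genotype, from 5.05% to 8.30% in WT astrocytes to 8.43% to 10.3% in KIN astrocytes, and from 5.09% to 5.99% in WT microglia to 5.86% to 8.46% in KIN microglia. As CPM of the mature miRNA counts only, miR-574-3p still stood apart in astrocytes, with 130 ± 16.5 in WT and 363 ± 17.6 in KIN, a ratio of 2.80. On that scale the ratio was 1.36 for miR-140-5p and 1.33 for miR-140-3p, in both cases without overlap, and 1.04 for miR-574-5p. The lack of overlap is again only a description. In microglia it was 1.59 for miR-574-5p and 1.32 for miR-140-5p, without overlap, and 0.95 and 0.97 for the 3p arms, which overlapped. The ratios were thus smaller per mature miRNA count than in CPM, and the source of the larger mature miRNA share was not tested.

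**Figure D2:**
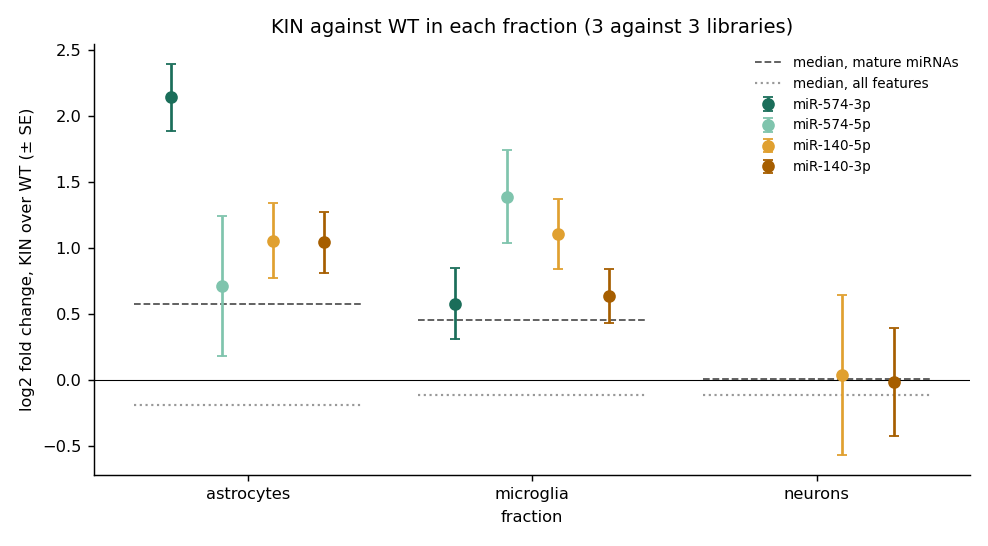
Fitted log2FC (± SE) of KIN over WT for the members in each fraction, 3 against 3 libraries, with dashed lines for the median of all mature miRNAs tested and dotted lines for the median of all features. miR-574-3p in astrocytes (2.14) lies farthest from the mature miRNA median there (0.58), and both miR-140 arms lie near 0 in neurons, where the miR-574 arms had too few counts to be fitted.

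The members were chosen by their values in the glial fractions, although with earlier results of these data known. Only the miR-140 arms passed the count filter in neurons, 2 of 4 members, and miR-140-5p did so through its KIN libraries alone. The KIN neuronal libraries were all deeper, with totals of 2343693 to 2427384 against 1211118 to 1956491 in WT. The mean of miR-140-5p was 2.23 CPM in KIN and 2.21 in WT neurons. Neither was called, beside 0.0% of the 4535 features tested. The edgeR test called 0 features in neurons, although 197 had an unadjusted p under 0.05, and DESeq2 called 0. The log2FC was 0.04 ± 0.61 for miR-140-5p, with a 95% interval from −1.30 to 1.38 and an edgeR adjusted p of 0.997. It was −0.01 ± 0.41 for miR-140-3p, with an interval from −0.92 to 0.90 and an adjusted p of 1.00. The sign of both values turned under some settings, miR-140-5p to as low as −0.24 and miR-140-3p to as high as 0.19. A difference of the size seen in astrocytes thus lay within the interval of miR-140-5p and just outside that of miR-140-3p, so the depth in neurons limits what can be said of the 5p arm.

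The other cell types the fractions could hold were measured by marker lists. In astrocytes 1 of 3 myeloid markers was called higher in KIN, and the list summed to 10.2 to 12.6 CPM in WT and 25.0 to 48.5 in KIN. Of 3 oligodendrocyte markers 1 was called higher, with sums of 1770 to 3035 in WT and 3351 to 5112 in KIN astrocytes. Of the 5 epithelial markers (choroid plexus and ependyma) 4 were tested, and 3 were called lower in KIN astrocytes and 3 in KIN microglia. The median log2FC of those tested was −4.85 in astrocytes and −2.49 in microglia. The list sum was 595 to 721 CPM in WT and 421 to 693 in KIN astrocytes, and 181 to 233 in WT and 175 to 287 in KIN microglia. Most of that sum was miR-204-5p, which was not called. Its mean was 576 CPM in WT and 540 in KIN astrocytes, and 165 and 229 in microglia. miR-449a-5p was at 0 in KIN microglia. In microglia 1 of 4 neuron markers was called lower, with sums of 64.5 to 168 CPM in WT and 51.5 to 60.7 in KIN. Of the neural lineage, endothelial, mural, mesenchymal and erythroid lists, 0 markers were called in any fraction. In neurons 0 of any list were called, beside 0.0% of all features. The median log2FC in microglia was −1.31 for neural lineage, −0.19 for endothelial and −0.68 for mural markers. It was 0.76 for the 1 mesenchymal marker tested and 2.01 for erythroid markers. The neural lineage list summed to 82.3 to 245 CPM in WT and 59.1 to 68.6 in KIN microglia, and the mural list to 146 to 206 and 60.0 to 137. Endothelial markers summed to 219 to 563 CPM in astrocytes, 118 to 265 in microglia and 4.94 to 33.3 in neurons, and mural markers to 201 to 317, 60.0 to 206 and 25.5 to 98.6. Mesenchymal markers stayed at or below 8.14 CPM in all fractions, with miR-199a-5p at 0 in WT neurons and miR-214-3p at 0 in KIN neurons. Erythroid markers summed to 25.9 to 61.0, 17.3 to 131 and 43.7 to 303 CPM, with miR-144-3p at 0 in WT microglia. The part of these cells in the members' differences was not tested.

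The fractions were then compared within each genotype, by the same fit and with no p-value. Between WT microglia and WT astrocytes the log2FC was 1.87 ± 0.36 for miR-574-3p and 1.53 ± 0.29 for miR-140-3p, each with all microglial libraries above all astroglial ones. The WT astrocyte level of miR-574-3p was among the values that chose it. miR-574-5p had 1.29 ± 0.50. miR-140-5p had 0.01 ± 0.34, with a 95% interval from −0.74 to 0.76, and the value of the 3p arm lay outside it. Of 4 members 2 passed the call rule, beside 31.5% of the 6397 features tested, and the median of the 418 mature miRNAs was −0.28.

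Between KIN microglia and KIN astrocytes miR-140-3p had a log2FC of 1.05 ± 0.19 and miR-574-5p one of 1.92 ± 0.39. miR-140-5p had 0.01 ± 0.24 (interval −0.53 to 0.54) and miR-574-3p 0.24 ± 0.22 (interval −0.23 to 0.72). Again 2 of 4 passed the call rule, beside 35.3% of the 4570 features tested. Without KIN astrocyte library 3 the log2FC of miR-140-3p was 0.91, below the fold threshold, and 1 member was called. With library totals it was 0.92 and with the reads of both arms and the hairpin summed 0.64. In both genotypes the 3p arm of miR-140 had the higher values in microglia while its 5p arm differed by 0.01 within the stated intervals.

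In neurons most mature miRNAs were low against both glial fractions, with a median log2FC of −2.66 for WT neurons against WT astrocytes, −2.56 against WT microglia, and −3.43 and −3.09 for the same comparisons in KIN. miR-140-3p was the 1 member that reached 5 counts in 2 or more of the WT neuronal libraries. Its log2FC was −1.64 ± 0.40 against astrocytes and −3.03 ± 0.39 against microglia. When the libraries were scaled by mature miRNA alone, these values were 0.81 and −0.87, so the first changed sign and neither passed the call rule. The other 3 members entered these fits only through their glial counts, so the filter favoured lower values in neurons. miR-140-5p, with 3, 3 and 4 counts in WT neurons, had −4.38 ± 0.53 against astrocytes and −4.26 ± 0.50 against microglia (−1.92 and −2.13 with scaling by mature miRNA alone). miR-574-3p had −1.70 ± 0.75 and −3.47 ± 0.75, where the second was −4.26 without WT neuron library 2 and −2.88 without library 3. miR-574-5p had −0.38 ± 0.94 and −1.53 ± 0.87, with overlapping WT neuron and WT astrocyte libraries. With scaling by mature miRNA alone, miR-574-3p had 0.54 against astrocytes and −1.50 against microglia, and miR-574-5p 2.14 and 0.67. The share of all features called was 28.7% of 5916 against astrocytes and 28.0% of 5166 against microglia.

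In KIN neurons both miR-140 arms reached 5 counts in 2 or more of the neuronal libraries, and the miR-574 arms did not. miR-140-5p had −5.31 ± 0.35 against astrocytes and −5.41 ± 0.42 against microglia. miR-140-3p had −2.60 ± 0.26 and −3.73 ± 0.31. Through their glial counts alone, miR-574-3p had −5.11 ± 0.44 and −5.44 ± 0.47, and miR-574-5p −1.84 ± 0.65 and −3.85 ± 0.51. Of all features 46.3% of 5001 were called against astrocytes and 53.0% of 4880 against microglia. With scaling by mature miRNA alone, miR-140-3p (0.42) and miR-574-5p (1.11) against astrocytes turned positive, and the other 6 values stayed negative. As in WT, the value of miR-140-5p lay further below 0 than that of miR-140-3p against each glial fraction.

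**Figure D3:**
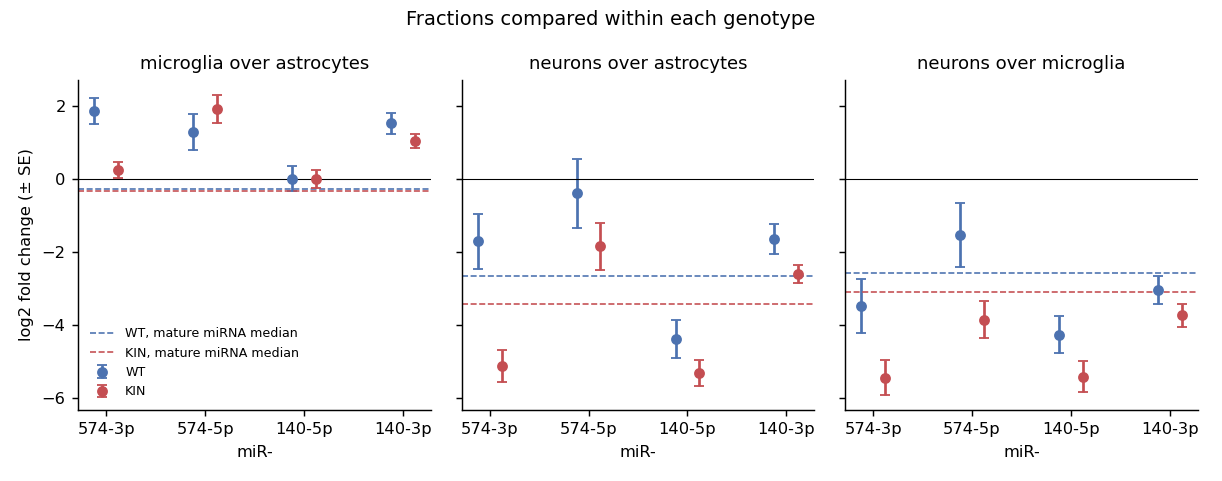
Fitted log2FC (± SE) between fractions for each member, WT in blue and KIN in red, 3 against 3 libraries, with dashed lines at the median of all mature miRNAs tested. miR-140-5p lies at 0.01 in both genotypes between microglia and astrocytes, where miR-140-3p lies at 1.53 and 1.05, and both lie below 0 in neurons, the 5p arm further.

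The arms of one hairpin were next compared with each other, which leaves out the scaling between libraries. The ratio was taken as log2 of 3p over 5p counts, with 0.5 added to each. For miR-140 it was 0.85 ± 0.21 in the 6 astroglial libraries, 2.13 ± 0.30 in the 6 microglial libraries and 3.42 ± 0.58 in the 6 neuronal libraries (SD). The 5p arm thus made up 35.7% ± 3.28 of the mature miR-140 counts in astrocytes, 18.7% ± 3.27 in microglia and 8.18% ± 3.11 in neurons. Astroglial libraries ranged from 30.7% to 39.4%, microglial libraries from 15.9% to 23.3% and neuronal libraries from 4.62% to 12.5%, with no overlap between fractions. The lowest astroglial library had a 95% Wilson interval of 27.5% to 34.0%, and the highest microglial library one of 21.2% to 25.4%. The neuronal shares rested on 32 to 83 counts a library, and their intervals, which cover counting error only, reached up to 28.1%. Reads counted on the Mir140 hairpin itself belong to neither arm here and are left out of all these shares. They made up a mean of 32.1% of the reads of the locus in astrocytes, 27.1% in microglia and 36.7% in neurons. How they would divide between the arms was not tested.

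By a two-sided exact permutation test over 6 against 6 libraries, the log2 ratio differed between microglia and astrocytes by 1.28 ± 0.15 (SE), between neurons and astrocytes by 2.57 ± 0.25 and between neurons and microglia by 1.29 ± 0.27. Each had p = 0.00216, the smallest that this exact test can give, and an adjusted p of 0.00433 over the 6 comparisons of both hairpins. Within each genotype the 3 fractions kept the same order without overlap, with differences of 1.48, 2.53 and 1.05 in WT and of 1.09, 2.61 and 1.52 in KIN. The fractions were taken in turn from each brain, so libraries of different fractions share brains, which this test does not take into account. With the replicate number as a block, each difference had an adjusted p of 0.0625 by the blocked exact test, which missed the threshold. The smallest p that this blocked test can give is 0.0312 before adjustment, and the labels do not tie the numbers to brains. The ratios also use glial counts that chose the members, so the p-values only describe these libraries. The exact test with 3 against 3 libraries cannot reach the threshold, so no p is given there.

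In neurons the arm ratio of miR-140 differed between KIN and WT by 0.04 ± 0.53 (SE, 3 against 3 libraries), and for the reason just given no p is read from it. As a description, the same difference was −0.04 ± 0.19 in astrocytes and −0.43 ± 0.17 in microglia, where the WT libraries had a 5p share of 17.1%, 16.1% and 15.9% and the KIN libraries one of 17.4%, 22.4% and 23.3%. These values are smaller than those between fractions, which ran from 1.05 to 2.61.

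**Figure D4:**
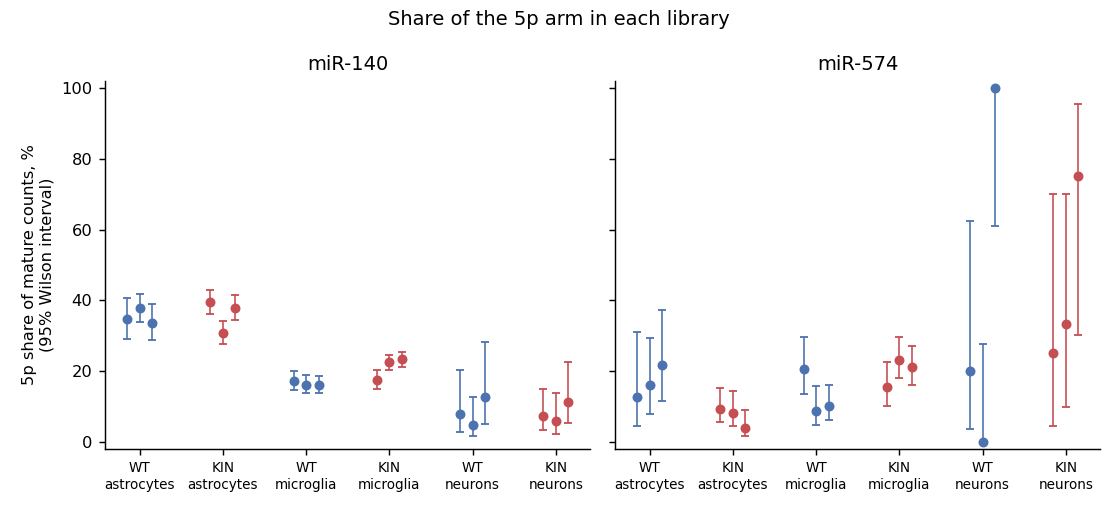
Share of the 5p arm among the mature counts of miR-140 (left) and miR-574 (right) in each library, in percent with 95% Wilson intervals, WT in blue and KIN in red. Reads counted on the hairpins are left out. The miR-140 shares form 3 separate bands, at 30.7% to 39.4% in astrocytes, 15.9% to 23.3% in microglia and 4.62% to 12.5% in neurons, while the miR-574 shares in neurons spread from 0% to 100% on 4 to 10 counts a library.

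For miR-574 the 3p arm also had more counts in the glial fractions, with a 5p share of 11.9% ± 6.25 in astrocytes and 16.5% ± 6.06 in microglia (SD, 6 libraries each). The fractions did not differ past the threshold, with adjusted p of 0.24 between microglia and astrocytes, 0.0844 between neurons and astrocytes and 0.171 between neurons and microglia by the exact permutation test. In neurons single libraries held 4 to 10 counts of both arms together, and WT library 3 had 6 counts of 5p and 0 of 3p. Without replicate 2 of every group the differences of neurons from both glial fractions passed the threshold (adjusted p 0.0343 by the exact test), so this comparison depended on these few counts. Reads of miR-574-5p cannot be placed at Mir574 by sequence alone, so its shares may include reads from elsewhere in the genome. As a description, the 5p share was 12.5%, 15.9% and 21.6% in WT astrocytes and 9.22%, 8.06% and 4.00% in KIN astrocytes, without overlap. In microglia it was 20.4%, 8.74% and 10.1% in WT and 15.4%, 23.2% and 21.1% in KIN, which overlapped.

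Reads that did not match a mature sequence were counted on the Ensembl hairpin rows. The hairpin row of Mir140 held 30.4% to 33.3% of all reads of the locus in astrocytes, 25.0% to 28.4% in microglia and 31.4% to 42.0% in neurons, and that of Mir574 32.7% to 41.5% in astrocytes and 29.5% to 36.4% in microglia, with 8 counts in all in neurons. Between WT microglia and WT astrocytes the Mir574 hairpin had a log2FC of 1.69 ± 0.39, near that of its 3p arm, and the Mir140 hairpin had 0.85 ± 0.31, between its arms. In neurons the Mir140 hairpin differed between KIN and WT by −0.27 ± 0.41 (edgeR adjusted p 0.932). As a description, the KIN to WT log2FC was 1.99 ± 0.27 and 0.71 ± 0.31 for the Mir574 hairpin in astrocytes and microglia, and 1.11 ± 0.25 and 0.68 ± 0.23 for the Mir140 hairpin. In KIN against WT the Mir574 hairpin thus had values near those of its 3p arm in both glial fractions. The Mir140 hairpin was near its 3p arm in microglia and near both arms in astrocytes.

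The host genes themselves left few small-RNA reads. Fam114a1 had 4 counts in all 18 libraries. Wwp2-206, the retained-intron transcript that covers Mir140, had 4222 counts, but its count exceeded that of the Mir140 hairpin by 0 to 2 in each library, so the rows cannot be told apart. The other 8 Wwp2 transcripts with a count had 34 counts together. These libraries therefore hold no separate measure of host transcription. The counting was not strand-specific, so reads of the opposite strand would be included.

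The pattern of each member over the 6 groups was set beside those of the other mature miRNAs with a mean of at least 10 CPM, as the root mean square difference of centred log2 CPM. The nearest to miR-140-3p was miR-16-5p, an abundant miRNA with a copy in an intron of Smc4, at 0.0852, followed by miR-32-5p (0.126) and miR-191-5p (0.128), where the median of 175 candidates was 1.14. miR-140-5p was nearest to miR-22-3p (0.206), miR-107-3p (0.239) and miR-3074-5p (0.270), with a median of 1.24. miR-574-3p was nearest to miR-532-3p (0.329), miR-185-5p (0.391) and miR-500-3p (0.397). miR-574-5p, at low counts, was nearest to miR-106b-5p (0.466), miR-21a-5p (0.466) and miR-93-5p (0.471). The arms of miR-140 were 0.916 apart, the 5p arm at rank 62 of the 3p arm's candidates and the 3p arm at rank 67 of those of the 5p arm, and miR-574-3p stood at rank 53 for miR-574-5p. miR-574-5p was below the 10 CPM minimum and so was no candidate for miR-574-3p.

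Other miRNAs listed as intronic were set beside these loci. A list of 52 mature miRNAs named with protein-coding hosts, without the members, was described by its counts. Of the 52, 49 had a same-strand protein-coding host in the annotation, the exceptions being miR-191-5p, miR-425-5p and miR-7a-5p. The check asked whether the gene contains the hairpin, and some names have hairpins in more than 1 host. Whether the hairpin lies in an intron, and how each miRNA is made, was not tested. In astrocytes 49 were tested, 7 were called higher in KIN and 0 lower, beside 47 higher and 9 lower of the 418 mature miRNAs and 8.18% of all features in either direction. The median log2FC was 0.61 beside 0.58 for all mature miRNAs, and −0.0046 with scaling by mature miRNA alone, which by its construction moved the median of all features from −0.19 to −0.87. In microglia 50 were tested, 2 were called higher and 0 lower, beside 32 higher and 8 lower of 382 mature miRNAs and 4.35% of all features, with a median of 0.53 beside 0.46. In neurons 37 were tested and 0 called, with a median of 0.16 beside 0.01.

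The called miRNAs of the list with the highest log2FC in astrocytes were both arms of Mir335, from an intron of the imprinted gene Mest. miR-335-5p went from 53.5 ± 11.7 to 221 ± 18.2 CPM (log2FC 2.17 ± 0.20) and miR-335-3p from 3.34 ± 1.51 to 10.8 ± 0.291 CPM (1.83 ± 0.35). The lowest of those called were miR-148b-3p from Copz1, at 1.07 ± 0.30, and miR-106b-5p from Mcm7, at 1.03 ± 0.25. In microglia miR-211-5p, from the melastatin gene Trpm1, went from 1.97 ± 0.230 to 13.9 ± 2.38 CPM (3.03 ± 0.35), and miR-107-3p, from the pantothenate kinase gene Pank1, from 57.7 ± 9.31 to 101 ± 20.4 CPM (1.03 ± 0.22). In astrocytes miR-574-3p was thus close to miR-335-5p in size (2.14 and 2.17), and the miR-140 arms close to the lower called members of the list.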

How the data were processed

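Small RNA of 18 libraries was sequenced with a kit that adds unique molecular identifiers, and whether these were used to collapse reads is not given in the sources used here. Per the study's methods and processing notes, the authors trimmed reads with cutadapt 4.6 (reads under 20 bases dropped), checked them with FastQC 0.11.9 and MultiQC 1.23, aligned them with Bowtie2 2.4.4 in successive rounds to mature miRNA, tRNA, piRNA, and Ensembl ncRNA and cDNA of mm39, and counted them with HTSeq 2.0.2. The deposited raw counts were used. The authors' 36 normalized per-library columns, 18 group means and 15 columns of their own comparisons (DESeq2 fold changes and p-values) were not used.

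Groups came from the sample titles. Counts were fitted for each comparison of 6 libraries with edgeR 4.0.16 in R 4.3.3 (quasi-likelihood test, library totals scaled by TMM, a minimum of 5 counts in 2 libraries, Benjamini-Hochberg adjustment over all features). SE is the absolute log2FC over the square root of F. Arm ratios were tested by exact permutation in SciPy 1.17.1, with a pseudocount of 0.5. The fits between fractions share glial libraries with the choice of the members, so their p-values served only for the call rule. The fit was also run on simulated counts with a fixed spread and a fixed size of difference, and no result of that run is used here. Alternatives were library totals, TMM from mature miRNA, no filter, the replicate number as a block, each library left out, DESeq2 1.42.0, 1 fit of 18 libraries, both arms and the hairpin summed, and a pseudocount of 1.

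Genome matches used GRCm39 and its GENCODE annotation, and the hairpins were the same in RefSeq. Named were the 4 members, their hairpins, host transcripts reaching 5 counts in 2 libraries, the 3 mature miRNAs nearest in pattern to each member (prior of 2 counts), and up to 2 highest and 2 lowest called members of the intronic list in each glial fraction. The members and lists, the cell type markers among them, were chosen with earlier results of these data known. Depth ran from 1211118 to 4316748 counts a library, where intervals and floors (3 counts) cover counting error only.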

Additional observations from a re-analysis of the deposited data

How the results depend on the processing

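In astrocytes 1 member instead of 3 was called with library totals, TMM from mature miRNA and 1 fit of 18 libraries, and 1 to 3 when a library was left out. In microglia 0 instead of 1 were called with library totals, TMM from mature miRNA, 1 fit of 18 libraries and the replicate block, 2 with DESeq2, and 0 to 2 when a library was left out. With TMM from mature miRNA the members called numbered 1 (of 2) for WT neurons against WT astrocytes, 1 (of 3) against WT microglia and 2 (of 4) for KIN neurons against KIN astrocytes. With a library left out, WT neurons against WT astrocytes gave 1 to 3, WT microglia against WT astrocytes 2 to 3, and KIN microglia against KIN astrocytes 1 to 2, where library totals and DESeq2 each gave 1. TMM from mature miRNA moved the median log2FC of all features by construction, from −0.19 to −0.87 in astrocytes, from −0.11 to −0.55 in microglia and from 0.06 to 3.05 for KIN neurons against KIN astrocytes.

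Values near 0 changed sign. In neurons miR-140-5p was −0.15 with TMM from mature miRNA and −0.24 to 0.20 with a library left out. miR-140-3p was 0.19 without a filter, 0.026 with DESeq2, 0.14 in 1 fit of 18 libraries and −0.21 to 0.10 with a library left out. Between WT microglia and astrocytes miR-140-5p was −0.088 with library totals, −0.041 in 1 fit of 18 libraries and −0.18 to 0.59 with a library left out. In KIN it was −0.12 with library totals, −0.048 with DESeq2, −0.018 with the replicate block and −0.13 to 0.15 with a library left out. With TMM from mature miRNA, WT neurons against WT astrocytes turned for miR-574-3p (0.54), miR-574-5p (2.14) and miR-140-3p (0.81), WT neurons against WT microglia for miR-574-5p (0.67), and KIN neurons against KIN astrocytes for miR-574-5p (1.11) and miR-140-3p (0.42), and the intronic list's median in astrocytes was −0.0046. miR-574-5p in WT neurons against astrocytes ran from −2.28 to 0.34 with a library left out. The cause was not tested. Over all alternatives for single members, 351 log2FC kept their direction and their side of the threshold, 37 lost the call, 8 gained it and 27 changed sign. With both arms and the hairpin summed, miR-574 was called in WT neurons against WT astrocytes (−1.82) and miR-140 was 0.64 between KIN microglia and astrocytes.

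The difference of the miR-140 arm ratio between fractions had the same direction in all alternatives, passing the threshold in 6 of them and missing it in 9. Without 1 replicate number it ran from 1.18 to 1.35 (microglia minus astrocytes), 2.32 to 2.89 (neurons minus astrocytes) and 0.96 to 1.58 (neurons minus microglia), with adjusted p of 0.0343 to 0.0571. For miR-574 neurons minus astrocytes was −2.44 with a pseudocount of 1 (adjusted p 0.0422) and −3.56 to −0.90 without 1 replicate number, and neurons minus microglia −2.87 to −0.34. The KIN to WT difference in neurons ran from −2.71 to 1.34 for miR-574 and from −0.33 to 0.42 for miR-140. As a check of the pairing, same-numbered libraries deviated together with r from −0.267 to 0.267, and in no comparison did all 3 pairs exceed 0.1, so the numbers were not taken as pairs. With the replicate block the miR-140 differences of 1.28, 2.57 and 1.29 had an adjusted p of 0.0625 (unadjusted 0.0312, the smallest that this blocked exact test can give), and the block also called miR-574-3p in WT neurons against WT astrocytes at −1.86. The depth of 32 to 83 mature miR-140 counts, and of 4 to 10 miR-574 counts, in each neuronal library limits every statement on neurons.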
